A study of Mus musculus with 4 samples.

Results

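The genes of DNA replication and nucleotide synthesis were examined in satellite cells of mouse muscle, its resident stem cells, with and without the calcitonin receptor gene Calcr. The set was defined by name and held 38 genes of 18193 named on the array, read by 84 probe sets. They cover origin licensing, the replicative helicase, the kinase that fires origins, polymerases, the sliding clamp and its loader, flap removal and ligation, and the supply of deoxynucleotides. Probe sets were analysed when their mean over the 4 arrays reached a signal of 63.9, the median of all probe sets. Of the 38 genes, 36 had at least 1 such probe set (62 in all, the brightest standing for its gene), and Pole and Tyms had none.

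The tested cells came from mice of genotype Pax7Cre/+::Calcr flox/flox with Rosa-YFP on both alleles, here called Calcr-cKO, and the reference cells from mice with the same Cre and YFP alleles and Calcr +/+, here called control. All mice were 10 weeks old and received tamoxifen, and YFP-positive cells were sorted 2 weeks later and taken without culture, 2 biological replicates a group on 1 array each. Cre-ERT2 is expressed from the Pax7 locus, so deletion was limited to cells with Pax7 activity, both groups carried the Pax7Cre allele, and YFP reports recombination at Rosa and not at Calcr. The labels call the samples biological replicates without giving the number of mice behind each. The p-values therefore measure the spread between these samples, which limma draws towards that of probe sets of like signal. The values are MAS5 signals, which summarise the probes of a probe set as 1 linear intensity. They are not set against each other between genes, because probe sets differ in brightness for the same amount of RNA. Calcr read 568 and 684 in Calcr-cKO cells, against 1268 and 1424 in control cells, so both Calcr-cKO arrays lay below both control arrays. Arrays sharing a replicate number resembled each other more over the analysed probe sets (correlations of 0.964 and 0.946) than arrays sharing a genotype (0.913 for Calcr-cKO and 0.900 for control), and what the numbers mark is not stated in the labels.

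Replication begins with licensing, when the origin recognition complex with Cdc6 and Cdt1 loads the ring of Mcm2 to Mcm7 onto DNA. The kinase Cdc7 with its activator Dbf4 then helps Cdc45 and the GINS complex join the ring, which forms the active CMG helicase. Polymerase alpha with primase starts each strand, the RFC clamp loader places PCNA, and Fen1 and Lig1 finish the lagging strand. Most of these genes are targets of E2F transcription factors and are low in resting cells. Satellite cells of uninjured adult muscle are mostly quiescent, and the study asks what loss of Calcr does to that state in freshly isolated cells.

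Because many members share promoter features, the promoters of 3 of them are shown from RefSeq (build GRCm38.p6), 5′ to 3′ on the gene's strand, for the 150 bases before the start of transcription. Mcm6, a ring subunit, stands at chr1:128359706-128359855 on the minus strand. Rfc3, a subunit of the clamp loader, stands at chr5:151651209-151651358 on the minus strand. Rrm2, the regulated subunit of ribonucleotide reductase, stands at chr12:24708104-24708253 on the plus strand. Capitals mark the E2F words TTTCCCGC, TTTCGCGC, TTTGCCGC and TTTGGCGC and the CCAAT box, read on both strands.
Mcm6: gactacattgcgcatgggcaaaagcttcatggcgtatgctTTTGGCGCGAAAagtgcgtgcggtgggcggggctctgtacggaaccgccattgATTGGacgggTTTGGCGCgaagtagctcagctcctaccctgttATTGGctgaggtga
Rfc3: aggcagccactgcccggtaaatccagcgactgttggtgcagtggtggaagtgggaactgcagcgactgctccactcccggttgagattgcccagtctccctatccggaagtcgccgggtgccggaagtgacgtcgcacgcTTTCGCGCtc
Rrm2: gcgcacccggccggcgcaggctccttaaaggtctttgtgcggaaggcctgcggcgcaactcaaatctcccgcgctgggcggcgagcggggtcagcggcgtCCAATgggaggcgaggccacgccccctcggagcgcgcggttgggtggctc

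In Mcm6 the word TTTGGCGC begins 110 and 47 bases before the start, and TTTCGCGC on the other strand overlaps the first of them. The E2F word in the printed stretch of Rfc3 begins 10 bases before the start, a second one lies at the start itself, outside the stretch, and the printed stretch of Rrm2 holds a CCAAT box and none of these 4 words. The table gave a promoter for 32 of the 38 genes (the first listed start of each, 250 bases before to 50 after it). At least 1 E2F word stood in 10 of these 32 (31.3%), against 2.32% of 27025 promoters and 2.92% of the 17492 promoters of protein-coding genes. A CCAAT box stood in 19 of 32 (59.4%), against 37.9% of all promoters. Among Mcm2 to Mcm7, 4 of 5 promoters held an E2F word and 5 of 5 a CCAAT box. These matches describe the sequence and say nothing about binding in these cells.

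No replication gene passed the test between genotypes, and the members did not move as a block. In bulk RNA, a different number of cycling cells and a different amount of RNA per cycling cell cannot be told apart. The signals of the members were mostly highest on Calcr-cKO replicate 1, and so were those of the mitosis genes compared below (19 of 32, 59.4%). The difference between genotypes depended on which pair of replicate numbers was compared, for the members and for the median of all genes. Between the arrays numbered 1, 35 of 36 genes (97.2%) were higher in Calcr-cKO, against 61.7% of the 10140 genes analysed. Between the arrays numbered 2, 12 of 36 (33.3%) were higher, close to the 32.2% of all genes. The median log2 difference, Calcr-cKO minus control, was 0.53 for the members within number 1 and -0.28 within number 2, and that of all genes was 0.09 and -0.19.

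**Figure D1:**
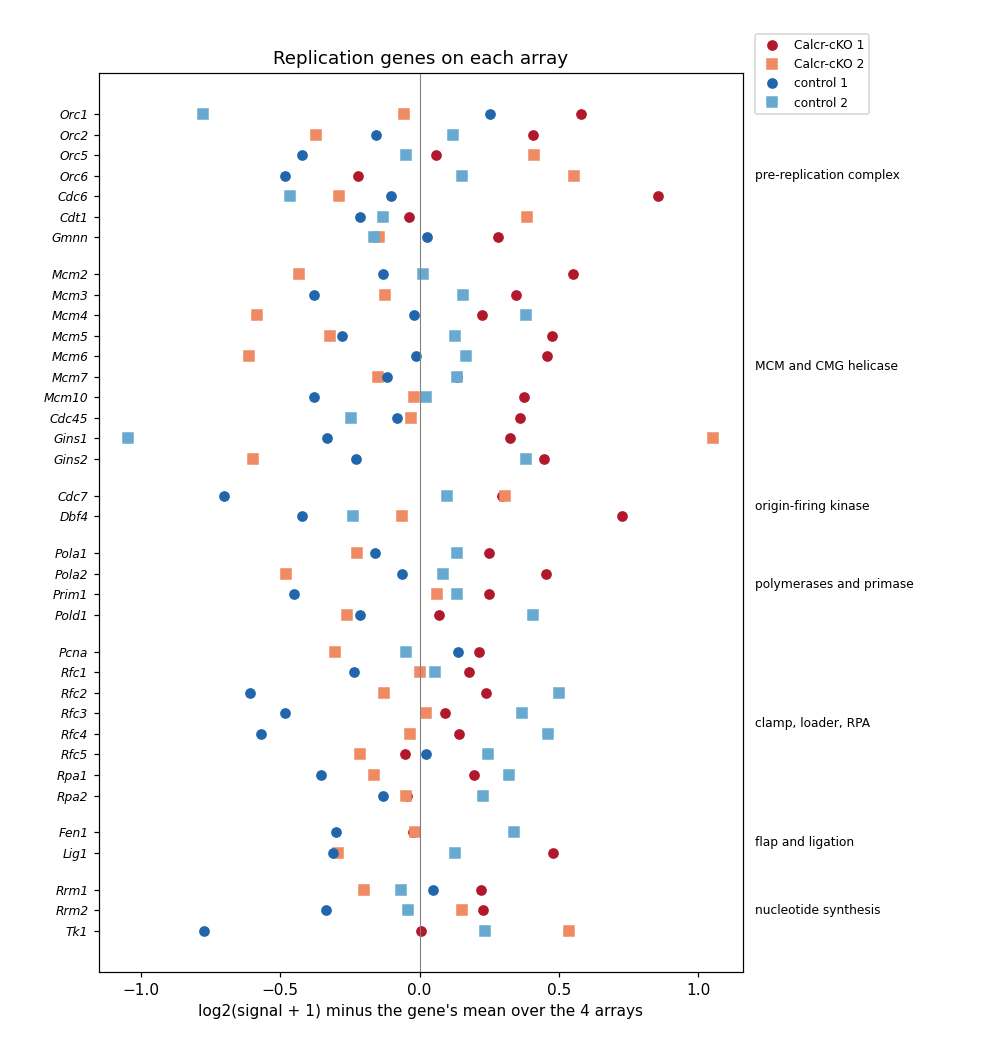
Each row is 1 of the 36 replication genes, ordered by complex, and each point 1 array; the horizontal axis is log2(signal + 1) minus that gene's mean over the 4 arrays. Red and orange points are the 2 Calcr-cKO arrays and dark and light blue points the 2 control arrays; Calcr-cKO replicate 1 is the brightest array for 21 genes, and only 8 genes have both Calcr-cKO arrays on one side of both control arrays.

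Taking both pairs into account, 12 genes were higher in Calcr-cKO within both numbers (33.3%, against 17.0% of all genes) and 1 was lower within both (2.78%, against 23.0%). These 12 were all the members higher within number 2, a share near the 32.2% of all genes, so the excess over all genes lay in number 1. A total of 23 were higher within number 1 and lower within number 2 (63.9%, against 44.8% of all genes). Calcr-cKO replicate 1 was the brightest of the 4 arrays for 21 of 36 genes (58.3%, against 25.7%), and control replicate 1 the dimmest for 18 (against 31.3%). Calcr-cKO replicate 2 was the dimmest for 13 (36.1%, against 36.9%). The median signal over all probe sets was 68.8 and 57.8 on the Calcr-cKO arrays and 70.4 and 64.3 on the control arrays. Measured against the median gene, whose log2 differences were the 0.09 and -0.19 above, 33 of 36 members were higher in Calcr-cKO within number 1 (91.7%, against 50% of all genes) and 16 within number 2 (44.4%, against 50%). On that scale 16 genes were higher within both numbers (against 22.2% of all genes) and 17 higher within number 1 and lower within number 2 (against 27.8%). The 2 control samples also differed from each other, and control replicate 1 read below control replicate 2 for 29 of 36 members (80.6%, against 63.9%).

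**Figure D2:**
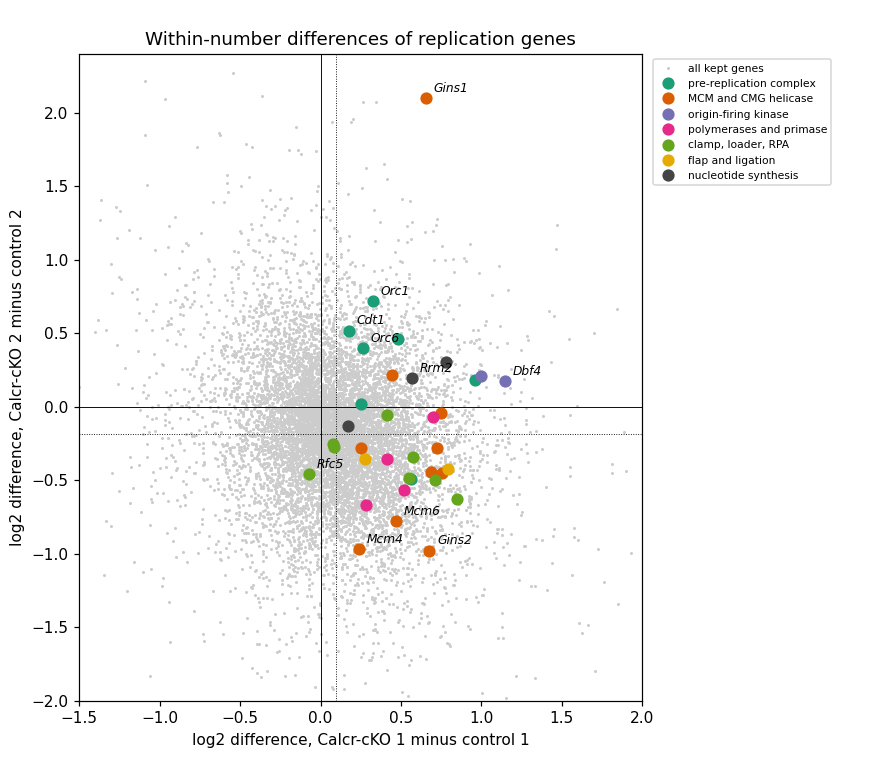
Each coloured point is a replication gene, with the log2 difference between Calcr-cKO 1 and control 1 on the horizontal axis and between Calcr-cKO 2 and control 2 on the vertical axis; small grey points are all 10140 genes (58 lie outside the axes) and dotted lines mark their medians, 0.09 and -0.19. The members spread along the vertical axis at positive horizontal values: 12 are above 0 on both axes and 23 only on the horizontal one.

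With all 4 arrays in 1 limma fit, 26 of 36 genes were higher in Calcr-cKO and 10 lower, with a median log2 difference of 0.13 against -0.04 for all genes. None of the 62 probe sets had an adjusted limma p under 0.05 (0% of 22519 probe sets passed), and 1 had an unadjusted limma p under 0.05 (0.724% of all probe sets). Both Calcr-cKO arrays lay above both control arrays for 7 genes (19.4%, against 8.53% of all genes) and below them for 1 gene (2.78%, against 12.1%). The 7 include Gins1, also the gene with the unadjusted limma p under 0.05. Both its control signals lay below 63.9, so it passed the filter only through its Calcr-cKO signals. The counts of 7 and 1 followed the scaling. They were 12 and 1 after quantile normalization (against 11.7% and 9.38% of all genes) and 13 and 0 after median centring of each array (12.0% and 7.15%). The median was -0.055 without Calcr-cKO replicate 1 and -0.016 without control replicate 1. It was 0.29 without Calcr-cKO replicate 2 and 0.34 without control replicate 2. Without Calcr-cKO replicate 2, the remaining Calcr-cKO array lay above both control arrays for 23 of 35 genes (30.2% of all genes). Without control replicate 2, both Calcr-cKO arrays lay above the remaining control array for 20 of 36 (34.6%). The remaining Calcr-cKO array lay below both control arrays for 13 genes without Calcr-cKO replicate 1 (40.7% of all genes). Both Calcr-cKO arrays lay below the remaining control array for 9 genes without control replicate 1 (44.7%). With 2 samples a group an exact permutation test of a single gene cannot go below a 2-sided p of 0.33.

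Most member genes of the pre-replication complex were higher in Calcr-cKO within both numbers (6 of 7, against 17.0% of all genes). All 7 members were higher within number 1 (against 61.7% of all genes) and 6 within number 2 (against 32.2%), with medians of 0.33 and 0.40. The counts of 7 and 6 were the same after quantile normalization and median centring. Orc5, a subunit of the origin recognition complex, read 113 and 144 in Calcr-cKO cells, against 80.6 and 105 in control cells. Cdt1, which brings the Mcm ring to origins, read 745 and 998, against 659 and 697 in control cells. For both genes the groups did not overlap. Orc5 differed by 0.47 on the log2 scale with an SE of 0.39 (1.38-fold, limma, adjusted p = 0.99999) and Cdt1 by 0.35 with an SE of 0.28 (1.27-fold, limma, adjusted p = 0.99999). The dimmer kept probe set of Cdt1 differed, at 152 and 154 in Calcr-cKO cells against 139 and 211 in control cells. With 1 array left out, the difference of Cdt1 was 0.14 without Calcr-cKO replicate 2 and 0.56 without Calcr-cKO replicate 1, and it was 0.09 as a mean over both probe sets. That of Orc5 was 0.28 without control replicate 1 and 0.29 without Calcr-cKO replicate 2. Origin recognition subunits outside the members went both ways, each without overlap. Orc3 was higher, at 632 and 560 in Calcr-cKO cells against 522 and 379 in control cells. Orc4 was lower, at 293 and 313 in Calcr-cKO cells against 364 and 377 in control cells.

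The other licensing genes among the members overlapped between the groups. Orc6, a further origin recognition subunit, read 314 and 538 in Calcr-cKO cells, against 262 and 407 in control cells. Orc1, the largest subunit, read 154 and 98.5, against 122 and 59.4 in control cells. In both genes each Calcr-cKO array lay above the control array of its own number, while the replicates of 1 group differed more than the genotypes did. Cdc6, the loading ATPase, was high on 1 array, at 219.7 and 98.8 in Calcr-cKO cells, against 112 and 87.1 in control cells. Orc2 went against the other licensing members within number 2, at 247 and 144 in Calcr-cKO cells against 167 and 202 in control cells. All 3 of its kept probe sets were higher within number 1 and lower within number 2. Gmnn, the inhibitor of Cdt1, read 99.5 and 73.8, against 83.3 and 72.9 in control cells, a log2 difference of 0.14.

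Both subunits of the origin-firing kinase were higher in Calcr-cKO without overlap on the probe sets analysed. Cdc7, the catalytic subunit, read 127 and 128 in Calcr-cKO cells, against 62.9 and 110.3 in control cells. Dbf4, its activator, read 231 and 134, against 104 and 118 in control cells. The Calcr-cKO arrays were close to each other for Cdc7 and far apart for Dbf4, where replicate 2 stood 1.13-fold above control replicate 2. The log2 differences were 0.60 with an SE of 0.42 for Cdc7 (1.52-fold) and 0.66 with an SE of 0.41 for Dbf4 (1.58-fold), both with limma's adjusted p = 0.99999. The control signal of Cdc7 on replicate 1 lay just below 63.9, the level used to keep probe sets. The difference of Cdc7 was 0.20 without control replicate 1 and 1.004 without control replicate 2. That of Dbf4 was 0.27 without Calcr-cKO replicate 1 and 1.06 without Calcr-cKO replicate 2. Each gene had a dimmer probe set that did not pass the filter, and on both of these the groups overlapped. For Cdc7 it was level within number 1 and lower within number 2, at 61.2 and 19.8 in Calcr-cKO cells against 60.8 and 61.3 in control cells. For Dbf4 it read 37.8 and 21.0, against 48.9 and 10.1 in control cells.

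**Figure D3:**
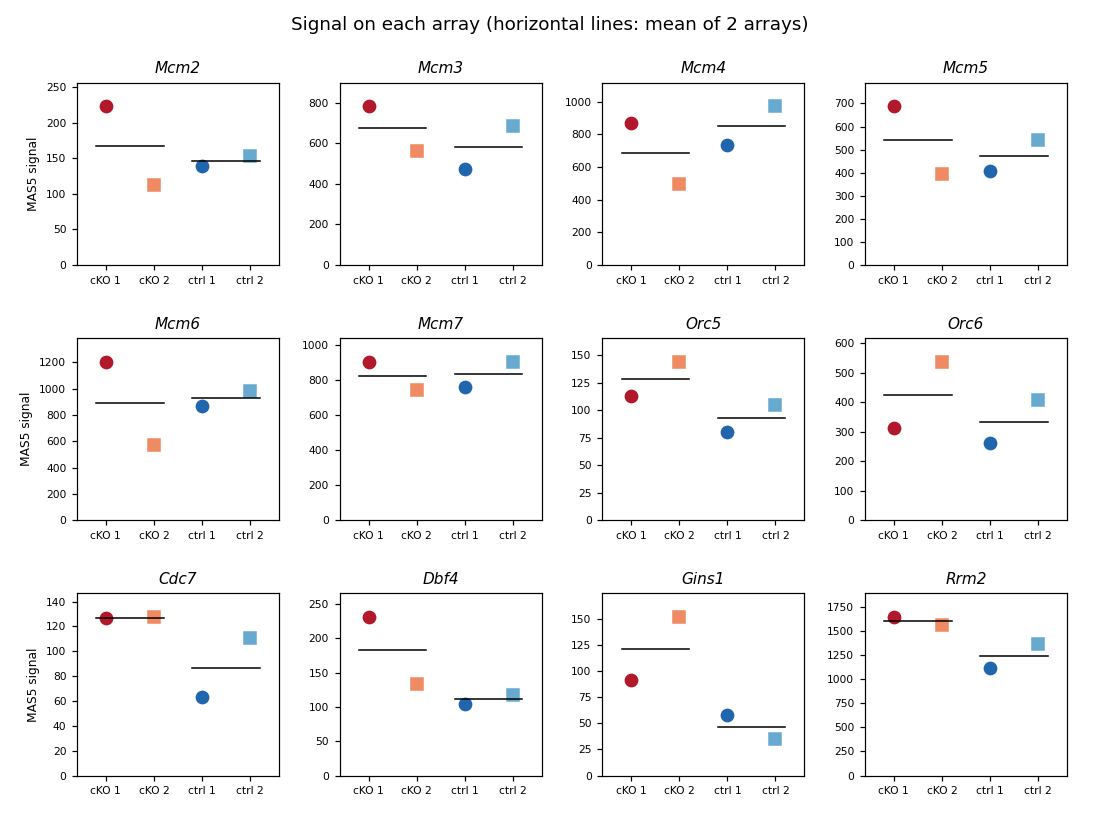
MAS5 signal on each array for the 6 subunits of the Mcm ring and for 6 genes that were higher in Calcr-cKO within both numbers; each panel has its own linear axis from 0, points are arrays in the order Calcr-cKO 1, Calcr-cKO 2, control 1, control 2, and lines are group means (n = 2). In the Mcm panels Calcr-cKO 1 stands above control 1 and Calcr-cKO 2 below control 2, whereas in the other 6 both Calcr-cKO arrays stand above the control of the same number.

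The Mcm ring gave opposite differences in the 2 pairs, higher within number 1 and lower within number 2, as did 44.8% of all genes. All 6 genes were higher in Calcr-cKO within number 1 (median 0.58) and all 6 lower within number 2 (median -0.45), and every group pair overlapped. The same 6 and 6 were found after quantile normalization (medians 0.53 and -0.27) and after median centring (0.61 and -0.29). Mcm6 read 1206 and 574 in Calcr-cKO cells, against 870.1 and 986 in control cells. Mcm5 read 688 and 396, against 408 and 540.0 in control cells, and Mcm2 read 223 and 113, against 139 and 154 in control cells. In Mcm2, Mcm5 and Mcm6 the Calcr-cKO arrays were thus both the brightest and the dimmest of the 4.

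Mcm4 had the lowest log2 difference of the 36 genes, -0.36 with an SE of 0.35, and read 871 and 497 in Calcr-cKO cells, against 736 and 973 in control cells. Mcm3 read 783 and 564, against 473 and 686 in control cells, and its 5 kept probe sets ran from -0.17 to 0.51 in log2 difference. Mcm7 read 905 and 743, against 760.5 and 904 in control cells. Over the 16 kept probe sets of the ring, 16 were higher in Calcr-cKO within number 1 and 14 lower within number 2. The 2 exceptions belong to Mcm3. Probe sets of 1 gene did not always share the sign of the difference over both pairs, and in Mcm7 the brightest was lower in Calcr-cKO and the other 3 higher.

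Among the partners that complete the CMG helicase the genes parted. Gins1, a subunit of the GINS complex, read 91.0 and 152 in Calcr-cKO cells, against 57.4 and 34.6 in control cells. This was the member with the smallest unadjusted limma p (0.0222), at a log2 difference of 1.38 with an SE of 0.48 (2.60-fold, limma, adjusted p = 0.99999). Its control signals were below the filter level of 63.9, so it was kept through its Calcr-cKO signals, and its second probe set was dimmer still, at 27.1 and 31.7 against 16.1 and 27.7 in control cells. Gins2, which works in the same complex, read 222 and 107, against 138 and 212 in control cells, and both of its kept probe sets followed the order of the Mcm ring. Cdc45 read 128 and 97.4 in Calcr-cKO cells, against 93.9 and 83.6 in control cells, without overlap (log2 difference 0.33 with an SE of 0.39, 1.26-fold, limma, adjusted p = 0.99999). A dimmer probe set of Cdc45 that did not pass the filter overlapped, in the order of the Mcm ring. It read 77.4 and 33.6 in Calcr-cKO cells, against 30.7 and 48.8 in control cells. Mcm10, which helps activate the helicase, read 94.4 and 71.6, against 55.7 and 73.8 in control cells. Without Calcr-cKO replicate 2 the probe set of Gins1 did not pass the filter and has no value. The difference of Cdc45 was 0.13 without Calcr-cKO replicate 1 and 0.52 without Calcr-cKO replicate 2.

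Polymerases and primase showed the order of the Mcm ring in 4 of 4 measured genes, against 44.8% of all genes. They were higher in Calcr-cKO within number 1 and lower within number 2 (medians 0.46 and -0.46). After median centring or quantile normalization, 3 of 4 were lower within number 2. Pola1, the catalytic subunit of polymerase alpha, read 210.1 and 151 in Calcr-cKO cells, against 158 and 194 in control cells, and Pola2, its accessory subunit, read 188 and 98.0, against 131 and 145 in control cells. Prim1, the catalytic subunit of primase, read 326 and 286, against 200.1 and 300.5 in control cells, and its dimmer probe set did not overlap, at 202 and 196 against 152 and 163. Pold1, the catalytic subunit of polymerase delta, read 391 and 311, against 321 and 495 in control cells. On the brightest probe sets the groups overlapped, and all 4 log2 differences over both pairs lay between -0.19 and 0.31. A dimmer probe set of Pold1 that did not pass the filter was lower in Calcr-cKO without overlap. It read 36.7 and 41.5 in Calcr-cKO cells, against 57.5 and 55.2 in control cells. Pole, the catalytic subunit of polymerase epsilon, was too dim to be analysed, at 69.2 and 52.0 in Calcr-cKO cells against 36.1 and 43.9 in control cells.

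The clamp, its loader and the single-strand binding protein were lower in Calcr-cKO within number 2 in 8 of 8 genes and higher within number 1 in 7 of 8 (medians -0.40 and 0.48). The order of the Mcm ring was thus shown by 7 of 8, against 44.8% of all genes. Measured against the median gene, 1 gene (Rfc1) was higher within number 2 and 5 of 8 within number 1, where Pcna and Rpa2 turned just below 0. Pcna, the sliding clamp, was nearly level, at 3358 and 2347 in Calcr-cKO cells against 3181 and 2799.7 in control cells. Rpa1, the large subunit that coats single-stranded DNA, read 865 and 673, against 590.5 and 942 in control cells. Rpa2, its partner, read 210.4 and 209.6, against 198 and 254 in control cells. A dimmer probe set of Rpa2 was higher without overlap, at 135 and 156 in Calcr-cKO cells against 88.0 and 125 in control cells. On the brightest probe sets of these 3 genes the log2 differences were -0.09, 0.03 and -0.10.

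Among the loader subunits, Rfc1 to Rfc4 overlapped between the groups. Rfc2 read 198 and 153 in Calcr-cKO cells, against 109.7 and 238 in control cells, and Rfc4 read 161 and 143, against 97.9 and 201 in control cells. Rfc3 read 152 and 145, against 102 and 184 in control cells, and Rfc1 read 275 and 244, against 207 and 253 in control cells. In Rfc2, Rfc3 and Rfc4 the control arrays held both the lowest and the highest value of the 4. Other kept probe sets of the loader gave both directions. For Rfc1, 1 of 3 was lower without overlap, at 69.3 and 70.1 in Calcr-cKO cells against 99.4 and 160.1 in control cells. For Rfc2, 1 of 3 was lower without overlap, at 118 and 78.3 in Calcr-cKO cells against 130.2 and 145 in control cells. For Rfc4, the other of 2 was higher without overlap, at 227 and 119.4 in Calcr-cKO cells against 97.4 and 118.9 in control cells. Rfc5 was the only member below control on both Calcr-cKO arrays, at 148 and 132 in Calcr-cKO cells against 156 and 182 in control cells (log2 difference -0.27 with an SE of 0.35, 1.20-fold lower, limma, adjusted p = 0.99999). It was -0.17 after median centring and -0.15 without control replicate 2.

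The 2 genes of flap removal and ligation also showed the order of the ring, as did 44.8% of all genes. Fen1, the flap endonuclease, read 282 and 283 in Calcr-cKO cells, against 233 and 362 in control cells. Lig1, the replicative DNA ligase, read 313 and 183, against 180.4 and 245 in control cells. On these probe sets both were higher within number 1 and lower within number 2, and neither separated the groups. A dimmer probe set of Fen1 that did not pass the filter was higher in Calcr-cKO without overlap. It read 37.6 and 34.5 in Calcr-cKO cells, against 22.7 and 26.6 in control cells.

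Of the 3 measured nucleotide synthesis members, 2 were higher in Calcr-cKO within both numbers (against 17.0% of all genes). Measured against the median gene it was 3 of 3 (against 22.2%). Genes of this process outside the members mostly did not share this. Dck was higher within both numbers. Cad, Umps, Dtymk, Dut, Gart and Mthfd1 had the order of the Mcm ring. Dhodh and Atic were lower within both numbers without overlap. Rrm2b and Shmt1 were lower within number 1 and higher within number 2. Rrm2 read 1652 and 1566 in Calcr-cKO cells, against 1116 and 1368 in control cells, without overlap. Its log2 difference was 0.38 with an SE of 0.22 (1.30-fold, limma, adjusted p = 0.99999), and all 3 of its kept probe sets were higher within both numbers. It was 0.23 without control replicate 1. Tk1, the thymidine kinase of the salvage pathway, read 83.6 and 121 in Calcr-cKO cells, against 48.3 and 98.1 in control cells, and overlapped. Rrm1, the large subunit that pairs with Rrm2, read 778 and 582, against 691 and 637 in control cells, and showed no such order (log2 difference 0.02). Tyms, which makes thymidylate, was too dim on the 4 probe sets that carry its symbol alone, the brightest of which read 76.0 and 28.3 in Calcr-cKO cells, against 67.4 and 44.5 in control cells.

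**Figure D4:**
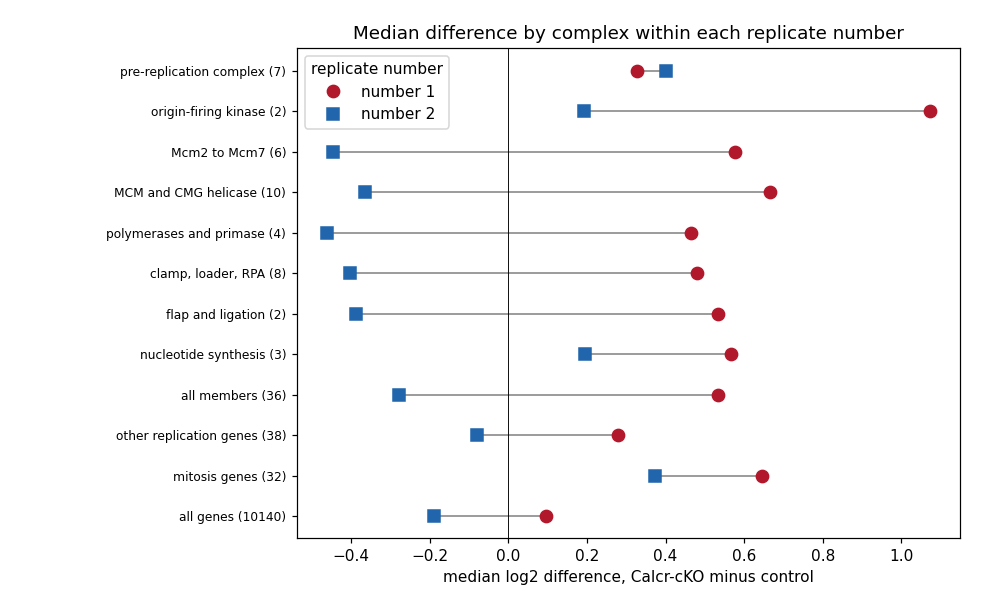
Median log2 difference, Calcr-cKO minus control, between the arrays numbered 1 (red circles) and between those numbered 2 (blue squares), for each complex, for all members, for other replication genes, for mitosis genes and for all genes, with the number of genes in brackets. The medians of the licensing, firing kinase and nucleotide synthesis members lie above 0 in both pairs. Those of the helicase, polymerase, clamp, and flap and ligation members lie on opposite sides of 0.

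Other genes of the same process, 50 in number and not members, gave an even split. Of 38 that were bright enough, 19 were higher in Calcr-cKO and 19 lower (median log2 difference 0.00), none passed the test, 7 lay above control without overlap (18.4%, against 8.53% of all genes) and 5 below (13.2%, against 12.1%). Within number 1, 27 were higher and within number 2, 15 were. The 6 with the smallest limma p were Pold4, Atad5, Rnaseh2c, Uhrf1, Wdhd1 and Prim2. Atad5, which unloads PCNA, read 147 and 228 in Calcr-cKO cells, against 100.1 and 121 in control cells (1.65-fold). Wdhd1, which links helicase and polymerase alpha, read 88.5 and 112, against 55.0 and 71.7 in control cells (1.57-fold). The control mean of Wdhd1 (63.4) lay below the filter level, so Wdhd1 was kept through its Calcr-cKO signals. Uhrf1, which guides maintenance methylation, read 574 and 357, against 252 and 353 in control cells, so that its difference lay in number 1. Prim2, the large primase subunit, read 262 and 159, against 108 and 169 in control cells, in the order of the Mcm ring. Pold4, a small subunit of polymerase delta, read 643 and 429, against 686 and 1269 in control cells, and Rnaseh2c, a subunit of ribonuclease H2, read 812 and 649, against 882 and 1264. In both, control replicate 2 was far above the other 3 arrays.

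Among the E2F genes, E2f8 and E2f7, which encode repressors that act late in the cycle, were higher in Calcr-cKO without overlap. E2f8 averaged 269 ± 8.03 in Calcr-cKO cells and 170.2 ± 7.29 in control cells (SD, n = 2 each), a log2 difference of 0.66 with an SE of 0.33 (limma, adjusted p = 0.99999). E2f7 read 105 and 99.8, against 73.6 and 49.9 in control cells. The control mean of E2f7 (61.8) lay below the filter level, so E2f7 was kept through its Calcr-cKO signals. The activators overlapped, with E2f1 at 186 and 189.8 in Calcr-cKO cells against 128 and 214 in control cells, and E2f2 at 193 and 385 against 144 and 242 in control cells. E2f3 had a log2 difference of -0.10.

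Mitosis genes, a list of 35 with 32 measured, are another group of genes used by dividing cells. Within number 2, 12 of 36 replication genes and 29 of 32 mitosis genes were higher in Calcr-cKO (medians -0.28 and 0.37), against 32.2% of all genes. Within number 1 these were 35 of 36 and 31 of 32 (medians 0.53 and 0.64), against 61.7% of all genes. Both Calcr-cKO arrays lay above both control arrays for 7 of 36 replication genes and 26 of 32 mitosis genes, against 8.53% of all genes. The difference between the lists was not tested, and 0 genes of either passed limma's adjusted threshold, with 1 replication gene and 2 mitosis genes having an unadjusted limma p under 0.05.

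Transcripts of other cells in the sort differed between arrays. Summed endothelial and pericyte markers were higher on the arrays numbered 1 in both genotypes. Summed leukocyte markers were close between genotypes within number 1 and lower in Calcr-cKO within number 2. Within number 1, Laptm5 (86.6 in Calcr-cKO against 313 in control) and Fcer1g were lower in Calcr-cKO and the other leukocyte markers higher. Within number 2, only Cd68 was higher in Calcr-cKO, at 282 against 195. Summed muscle fibre markers differed in opposite directions within the 2 numbers. All 10 satellite cell markers were detected well above the filter level, with summed signals of 26086 and 27657 in Calcr-cKO cells and 25735 and 33414 in control cells. All 10 leukocyte markers had a probe set, 6 of them above the filter, and summed to 1486 and 558 in Calcr-cKO cells and 1472 and 2391 in control cells, lowest and highest on the arrays numbered 2; none was at 0, and Ptprc read 28.3 and 2.23 in Calcr-cKO cells and 21.6 and 39.5 in control cells. The 10 endothelial markers, 9 above the filter, summed to 6307 and 1116 in Calcr-cKO cells and 6705 and 996 in control cells. The 7 muscle fibre markers summed to 1578 and 2430.0 in Calcr-cKO cells and 3246 and 1455 in control cells. Pericyte and smooth muscle markers (8 of 8 above the filter) summed to 17226 and 7793 in Calcr-cKO cells and 15641 and 8918 in control cells. Notch3, also on the satellite cell list, and Acta2 differed less between the numbers than the other pericyte markers. Rgs5 read 4828 and 649 in Calcr-cKO cells and 5200 and 442 in control cells. Acta2 read 4947 and 3562, and 4288 and 4190. Fibro-adipogenic markers (3 of 7 above the filter) summed to 6461 and 7419 in Calcr-cKO cells and to 6998 and 7726 in control cells. The part of these cells in the replication values was not tested.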

How the data were processed

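Per the labels' protocols, total RNA of freshly sorted cells was purified with a column kit, labelled with biotin by a small sample assay and hybridised to 1 array per sample. The authors deposited 1 MAS5 signal per probe set and array, an intensity on a linear scale, per the submitters' processing notes. A scaling target was not given in the sources used here. Scanner files and detection calls were not used here. The 4 arrays limit the precision.

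Gene names came from the platform annotation (45101 probe sets, 64 of them controls, 34945 with 1 symbol, 932 with several, 9160 with none). All 84 member probe sets kept their symbol through their Entrez identifiers; 1 probe set shared by Tyms and a pseudogene was not used. Values were analysed as log2(signal + 1) without further normalization, so differences are on that scale. The filter was a mean log2 value at or above the median of non-control probe sets, equal to a signal of 63.9; 22519 probe sets passed, and 10140 genes had at least 1 of them, of which the brightest was used. Calcr-cKO was compared with control by limma 3.58.1 in R 4.3.3 (eBayes with an intensity trend, no block, 2-sided, Benjamini-Hochberg over all kept probe sets, threshold 0.05). Group means and SDs are of signals. SEs and p-values use limma's variance, in which that of each probe set is drawn towards probe sets of like signal (5.32 prior and 2 residual degrees of freedom). Within-number differences are single-array differences with no test. The fit was tested on simulated arrays.

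Named were all 38 members, the 6 other replication genes with the smallest p, and fixed E2F and marker genes. Origin recognition and nucleotide synthesis genes outside the members were named after their values were seen. Fold, SE and p were given for members without overlap, and other values were chosen after they were seen. The members and lists were chosen with earlier results of these data known. The alternatives were other scalings, a pseudocount of 32, filters, eBayes without a trend, a replicate block, other probe set choices and each array left out. The replicate numbers come from the titles, which do not say that they mark a shared animal, litter or day. RefSeq promoters were searched for exact words.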

Additional observations from a re-analysis of the deposited data

How the results depend on the processing

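No member probe set passed limma's adjusted threshold under any of the 13 alternatives. The count of genes above control without overlap (7) was 12 with quantile normalization, 13 with median centring and 2 (of 14 genes) with the filter at the 75th percentile, and ran from 9 to 23 with 1 array left out. The count below control (1) was 0 with median centring and with the 75th percentile filter, 2 with unsuffixed probe sets, and ran from 1 to 13 with 1 array left out. The shorter arm makes non-overlap easier there, and the shares of all genes were higher too, between 19.7% and 34.6% above control and between 24.2% and 44.7% below it. The median log2 difference (0.13) ran from -0.055 to 0.34 with 1 array left out, reversed without Calcr-cKO replicate 1 (-0.055) and without control replicate 1 (-0.016), and stayed between 0.026 and 0.22 under the other alternatives. With 1 array left out, the differences of Orc5, Cdt1, Cdc45, Cdc7, Dbf4, Rfc5 and Rrm2 moved by over 1.5 times, as given above, and Gins1 had no value without Calcr-cKO replicate 2. Of 96 values of the 8 genes without overlap, 95 kept their sign, and Cdt1 turned to -0.16 with unsuffixed probe sets, where its dimmer probe set is read. With the replicate number as a block, 0 probe sets passed and the median was 0.13; over all kept probe sets, deviations of same-numbered arrays from their group means correlated at 0.434 (0.180 over the members), which with 2 pairs is a hint from the data and not the design. Signals near 63.9 (Gins1, Cdc7, Tk1, Mcm10, E2f7, Wdhd1) limit the folds of the dim genes. Of these, Gins1, E2f7 and Wdhd1 had control means below 63.9 and were kept through their Calcr-cKO signals.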
